A study of Macaca mulatta with 10 samples.

Results

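Blood and lymphatic endothelial genes were followed in lymph nodes of rhesus macaques through 10 marker genes, taken by name as known endothelial markers, with no threshold on a measured value. The 10 symbols were sought among the 18622 gene symbols of the deposited log2 expression table, and 9 had a row. These were 6 markers of blood vessels or of all endothelium (PECAM1, CDH5, VWF, KDR, TIE1 and TEK) and 3 lymphatic markers (PROX1, PDPN and FLT4). No row carried the symbol LYVE1, which encodes the hyaluronan receptor of lymphatic endothelium. A row named XLKD1, an older symbol of LYVE1, is described below and is not counted among the 9.

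Endothelium lines every vessel of a lymph node. Blood vessels bring lymphocytes in through high endothelial venules, and lymphatic vessels and sinuses carry lymph and leaving lymphocytes. PECAM1 and CDH5 join endothelial cells to each other, VWF is the stored adhesive protein that captures platelets, and KDR, TIE1, TEK and FLT4 are receptor tyrosine kinases for vascular growth factors. PROX1 is the transcription factor that sets and keeps lymphatic identity. PDPN, or podoplanin, is a membrane glycoprotein of lymphatic endothelium that fibroblastic reticular cells of the node also carry.

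Each of 10 male animals gave 1 array, with 5 animals under stable and 5 under unstable social conditions, and the study asked whether the nodes of these groups differ in expression. RNA was hybridized to Illumina bead arrays designed for human transcripts, and the values are log2 signals that share nearly the same distribution on every array. Age labels, given without a unit, ran from 5.73 to 5.87 in the stable group. They were 6.84, 6.72 and 6.7 in unstable animals 1 to 3 and 5.62 and 5.61 in unstable animals 4 and 5. Slide 2 carried stable animals 1 to 4, slide 3 carried unstable animals 4 and 5, and slide 1 carried stable animal 5 with unstable animals 1 to 3. Social condition, slide and age therefore overlap and cannot be told apart in full. Correlations between arrays lay between 0.972 and 0.99. Of 10 lymphocyte markers, 9 were above background on all 10 arrays, with CD3D, a subunit of the T cell receptor complex, at 11.86 to 12.41.

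Of the 6 blood and pan-endothelial genes 5 were above background on all 10 arrays, and of the 3 lymphatic genes 1 was. A value counted as above background when it exceeded the most frequent log2 signal of its array by 3 SDs of the values below it, which put the threshold at 6.82 to 6.87. PECAM1, CDH5, VWF, TIE1, TEK and PDPN passed on all 10 arrays. KDR passed on 2 arrays, PROX1 on 1 and FLT4 on 0, so for these genes the values bound the signal and carry little information on change. Of all 18622 genes, 6753 were above background on all 10 arrays and 8401 on none.

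No difference in an endothelial gene between social conditions exceeded the spread between animals. In limma's moderated test over the 18622 genes, 0 of 9 had an adjusted p under 0.05, with adjusted p from 0.945 for PDPN to 0.994 for TIE1. Among all genes 0 were called, 0% of those tested. At an unadjusted p under 0.05 limma counted 0 of the 9, beside 956 genes or 5.13% of all (2.41% higher and 2.73% lower in unstable animals). The 2 groups overlapped for each of the 9 genes, where 0.838% of all genes had groups that did not overlap (0.322% higher and 0.516% lower). Of the 9 genes 6 had lower means in unstable animals, of which PECAM1, CDH5 and TIE1 turned under median scaling, against 51.1% of all genes with lower means. Their median log2 difference was -0.02, against -0.00151 for all genes. In bulk tissue, fewer cells of a type and less RNA per cell cannot be told apart.

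**Figure D1:**
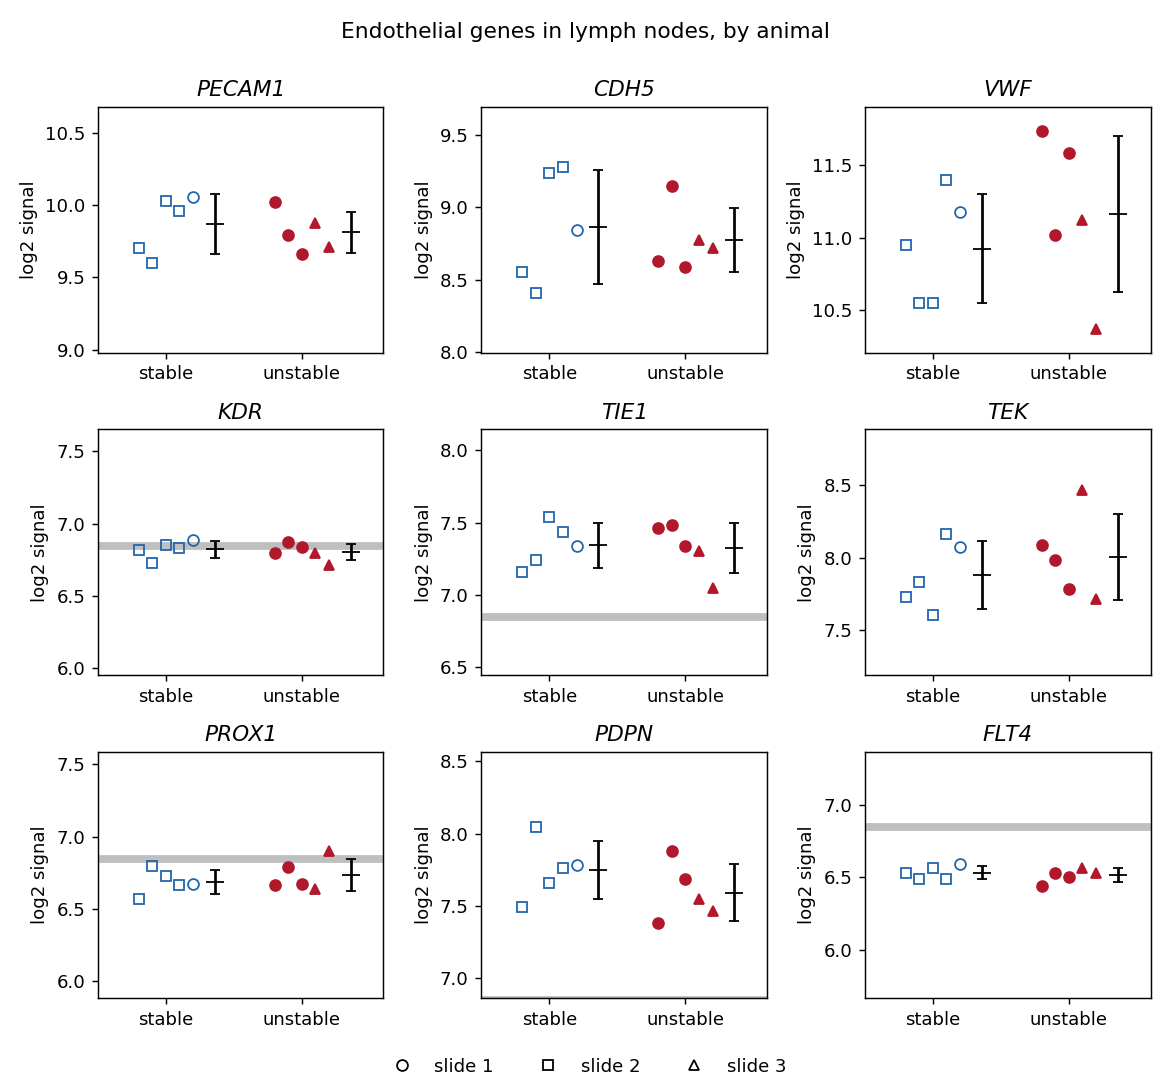
Log2 signal of the 9 endothelial genes in each of 10 animals, stable in blue open symbols and unstable in red filled symbols, with the symbol shape giving the slide; black bars are the group mean and SD (n = 5), and the grey band is the range of background thresholds, which lies below the plotted range for PECAM1, CDH5, VWF and TEK. All panels span the same number of log2 units. VWF spread widely within both groups and CDH5 within the stable group, while KDR lies around the grey band and FLT4 wholly under it.

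The junction genes showed the same animals at the low end. PECAM1, an adhesion molecule of endothelial junctions that platelets and leukocytes also carry, stood at 9.70, 9.60, 10.03, 9.96 and 10.06 in stable animals 1 to 5 and at 10.02, 9.80, 9.66, 9.87 and 9.71 in unstable animals 1 to 5. Stable animal 2 was lowest and stable animal 5 highest, so the stable group enclosed the unstable one. The group means were 9.87 ± 0.206 (SD, n = 5) and 9.81 ± 0.141 (SD, n = 5), a log2 difference of -0.06 with a 95% interval of -0.28 to 0.16 (limma adjusted p = 0.979). On slide 1 the 3 unstable animals averaged 9.83 against 10.06 in stable animal 5, a difference of -0.23. Under median scaling of the intensities the PECAM1 difference was 0.05.

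CDH5, the VE-cadherin of endothelial adherens junctions, is the most endothelium-restricted of the junction genes. It stood at 8.56, 8.41, 9.24, 9.28 and 8.84 in stable animals 1 to 5 and at 8.63, 9.15, 8.59, 8.78 and 8.72 in unstable animals 1 to 5. Stable animals 3 and 4 and unstable animal 2 formed a high set, and stable animals 1 and 2 lay below all the others. The means were 8.86 ± 0.393 (SD, n = 5) for the stable group and 8.77 ± 0.222 (SD, n = 5) for the unstable group, a log2 difference of -0.09 with a 95% interval of -0.48 to 0.30 (limma adjusted p = 0.985). Leaving out stable animal 3 or stable animal 4 moved the difference to 0.00242 or 0.0134, and median scaling to 0.016, all above 0.

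VWF had the widest range of the 9 genes over the 10 animals, while within the stable group CDH5 had the larger SD. This gene for von Willebrand factor, which endothelial cells store and platelets also carry, stood at 10.95, 10.55, 10.55, 11.40 and 11.18 in stable animals 1 to 5 and at 11.74, 11.02, 11.58, 11.12 and 10.37 in unstable animals 1 to 5. Unstable animals 1 and 3 were the highest and unstable animal 5 the lowest of all 10, a 2.59-fold range. The pooled SD of 0.466 log2 units exceeded that of 97.6% of the 6753 genes above background on all arrays, whose median SD was 0.133. The means were 10.92 ± 0.379 (SD, n = 5) and 11.17 ± 0.539 (SD, n = 5), which is 1.18-fold higher in unstable animals with a 95% interval of 0.795 to 1.76 (limma adjusted p = 0.959).

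The sign of the VWF difference turned when age labels were taken into account and held when slide was, but these runs cannot separate age from slide. Unstable animals 1 to 3, with the higher age labels, were all on slide 1, and the slide means of VWF were 11.38, 10.86 and 10.75 for slides 1, 2 and 3. With the age label as a covariate the VWF difference was -0.08, and without the 3 older animals it was -0.18, while within slide 1 it was 0.27 and with slide as a random block 0.28. The slide 1 value sets the 3 older unstable animals against stable animal 5 alone, so age labels still differ within it. The random block had a fitted slide correlation of -0.08 and adjusted little for slide. Leaving out unstable animal 5 raised the VWF difference to 0.44, and it was 0.10 when unstable animal 1 was left out, 0.14 for unstable animal 3, and 0.15 for stable animal 2 or 3. Platelet genes gave little signal: 8 of the 10 measured were above background on no array, including PF4 and PPBP, the chemokines stored in platelets. The mean log2 signal of the 10 ran from 6.63 to 6.72 in stable and from 6.64 to 6.67 in unstable animals. The part of platelets in the VWF values was not tested beyond these levels.

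Among the receptor kinases, TIE1 and TEK were above background and KDR was at its edge. TIE1, the orphan receptor that modulates angiopoietin signalling, stood at 7.16, 7.24, 7.54, 7.44 and 7.34 in stable animals 1 to 5 and at 7.46, 7.48, 7.34, 7.31 and 7.05 in unstable animals 1 to 5. Stable animal 3 was highest and unstable animal 5 lowest, and the other values interleaved. The means of 7.34 ± 0.153 (SD, n = 5) and 7.33 ± 0.173 (SD, n = 5) gave a log2 difference of -0.02 with a 95% interval of -0.22 to 0.19 (limma adjusted p = 0.994). Its sign turned within slide 1, where the difference was 0.09, under median scaling (0.04), and when stable animal 3 (0.03), stable animal 4 (0.00829) or unstable animal 5 (0.05) was left out.

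TEK, the angiopoietin receptor that keeps vessels quiescent, stood at 7.73, 7.83, 7.61, 8.16 and 8.08 in stable animals 1 to 5 and at 8.08, 7.98, 7.78, 8.47 and 7.72 in unstable animals 1 to 5. Unstable animal 4 was the highest. The means were 7.88 ± 0.233 (SD, n = 5) and 8.01 ± 0.298 (SD, n = 5), a log2 difference of 0.13 with a 95% interval of -0.21 to 0.46 (limma adjusted p = 0.973). Without unstable animal 4 the TEK difference was 0.00996, without stable animal 3 it was 0.06, without stable animal 4 or unstable animal 5 it was 0.20, and within slide 1 it was -0.13. In unstable animal 4 the 9 adipocyte markers above background on 3 or more arrays had a mean log2 signal of 8.49, against 7.77 to 8.08 in the other 9 animals. The part of perinodal fat in the TEK value of that animal was not tested.

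KDR, the main receptor for VEGF-A on blood endothelium, ranged from 6.73 to 6.89 in stable and from 6.72 to 6.87 in unstable animals. Only stable animal 5 and unstable animal 2 exceeded their thresholds. A threshold of 2 SDs in place of 3 put KDR above background on 8 arrays and one of 4 SDs on 0, so its detection rests on the rule.

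PDPN was the only lymphatic gene above background, and it was the gene with the smallest p. It stood at 7.49, 8.05, 7.66, 7.76 and 7.79 in stable animals 1 to 5 and at 7.38, 7.88, 7.69, 7.55 and 7.46 in unstable animals 1 to 5. Stable animal 2 was highest and unstable animal 1 lowest, and only unstable animal 2 exceeded the stable mean. The means were 7.75 ± 0.203 (SD, n = 5) and 7.59 ± 0.198 (SD, n = 5), which is 0.897-fold in unstable animals with a 95% interval of 0.754 to 1.07 (limma unadjusted p = 0.195, adjusted p = 0.945). The difference of -0.16 was -0.14 within slide 1, -0.08 without stable animal 2, -0.10 with unstable animal 1 left out, and -0.07 with both stable animal 2 and unstable animal 4 left out.

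The deposited PDPN value joined a bright and a dim probe. Averaging the intensities of 2 probes before taking log2 gave the deposited row within 0.000145 log2 units. On quantile-normalized intensities, 1 of them ranged from 7.98 to 8.91 and was above background on all 10 arrays, and the other ranged from 6.54 to 6.79 and was above background on 0. The bright probe alone spanned a 1.9-fold range over animals, against 1.59-fold for the joined row. Its group difference was -0.19, from means of 8.49 ± 0.275 (SD, n = 5) for stable and 8.30 ± 0.277 (SD, n = 5) for unstable animals (two-sided exact permutation p = 0.31, over 252 regroupings). The fibroblastic reticular and follicular dendritic cell markers, cells of which the first kind also carry podoplanin, passed background on at least 3 arrays for 13 of 15 genes, and those 13 had a mean log2 signal of 9.39 to 9.68 in stable and 9.43 to 9.64 in unstable animals. Over the 10 animals PDPN had Pearson's r = 0.0526 with that mean (permutation p = 0.878, adjusted 0.979 over the 66 relations described below). Without stable animal 2 and unstable animal 1 r was 0.438. The part of these cells in the PDPN values was not tested beyond this relation.

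The other lymphatic genes stayed at background in both groups. PROX1 ranged from 6.57 to 6.80 in stable and from 6.64 to 6.90 in unstable animals, with unstable animal 5 alone above its threshold. FLT4, the receptor for the lymphatic growth factors VEGF-C and VEGF-D, ranged from 6.49 to 6.59 in stable and from 6.44 to 6.56 in unstable animals, and neither of the 2 probes behind its row was above background on any array. XLKD1 was above background on 0 arrays, at 6.49 to 6.68. These values do not show that the genes were silent: how well the human probes bind the macaque transcripts was not tested.

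**Figure D2:**
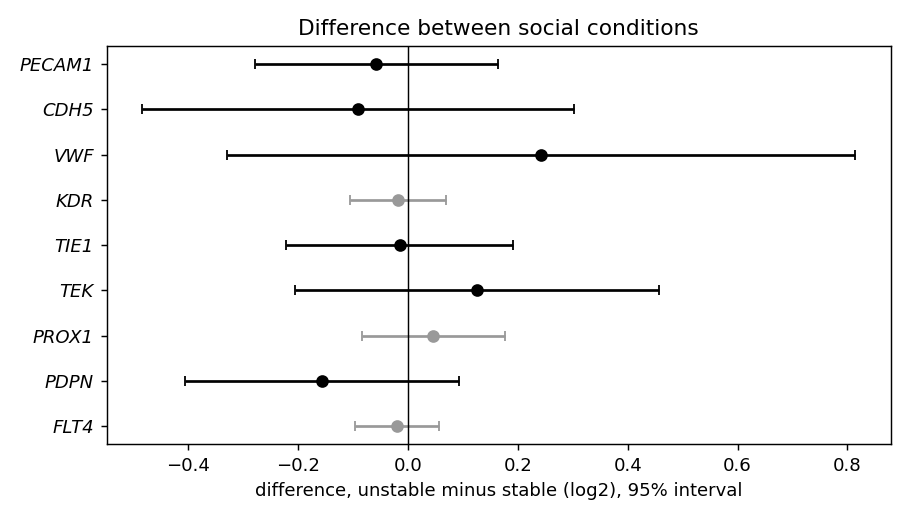
Log2 difference, unstable minus stable, for the 9 genes, with 95% intervals from limma's moderated fit (5 animals a group); black marks genes above background on all 10 arrays and grey those near or under background. Every interval includes 0, and the interval of VWF, from -0.33 to 0.81, is the widest.

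Levels of different probes are not comparable, so blood and lymphatic markers were set against each other as deviations, each gene from its own mean over the 10 arrays. Over the 6 blood and pan-endothelial genes the mean deviation was lowest in unstable animal 5 at -0.25 and stable animal 2 at -0.24, and highest in stable animal 4 at 0.21 and unstable animal 1 at 0.16. Over the 3 lymphatic genes it ran from -0.14 in unstable animal 1 to 0.14 in stable animal 2. PROX1 and FLT4 were near or under background, and PDPN alone deviated by -0.29 and 0.38 in these animals. Other lymphatic endothelial genes above background on 3 or more arrays, 11 in number, did not share this order. Their mean log2 signal was 8.99 in unstable animal 1 and 8.51 in stable animal 2. The blood and lymphatic means lay on the same side of 0 in 7 animals and on opposite sides in 3, which were stable animal 2, unstable animal 1 and unstable animal 4. The side was uncertain in several of the 7. The blood mean was 0.00228 in stable animal 3 and -0.000403 in unstable animal 3. The lymphatic mean was 0.00486 in stable animal 4 and -0.00344 in unstable animal 5.

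The lymphatic minus blood deviation was thus largest in stable animal 2, at 0.38, and lowest in unstable animal 1, at -0.30, so the ends came from different groups. Its group means were 0.04 ± 0.216 (SD, n = 5) for stable and -0.04 ± 0.203 (SD, n = 5) for unstable animals, and they differed by -0.07, which is smaller than either SD. Blood markers differed by 0.03 and lymphatic markers by -0.04, against SDs of 0.182 and 0.16 for blood and 0.0892 and 0.0871 for lymphatic genes. Without PDPN, the mean over PROX1 and FLT4 differed by 0.0134. With PDPN as the sole lymphatic gene, set against the 5 blood genes above background, the range was -0.48 to 0.65 and the group difference -0.20, with SDs of 0.314 and 0.255. No test is given for these means over the gene lists.

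**Figure D3:**
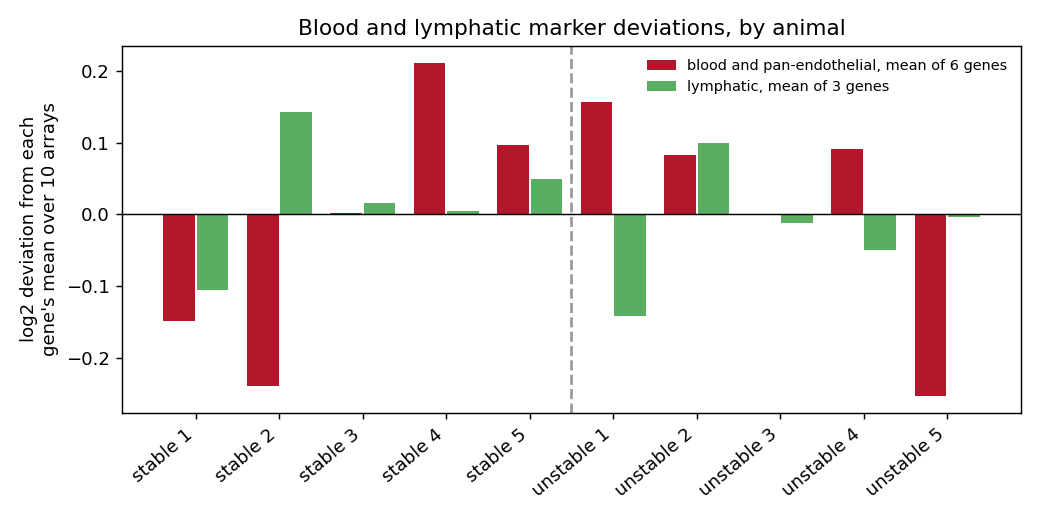
Mean log2 deviation of 6 blood and pan-endothelial genes (red) and 3 lymphatic genes (green) from each gene's own mean over the 10 arrays, for each animal, with stable animals left of the dashed line. In stable animal 2 the blood genes lay at -0.24 and the lymphatic genes at 0.14, and unstable animal 1 had the opposite arrangement at 0.16 and -0.14. PDPN made most of these lymphatic means, at 0.38 and -0.29, as PROX1 and FLT4 were near or under background.

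The blood and pan-endothelial genes tended to vary together, but no pair passed correction. Among the 6 genes above background, 15 pairs were compared over 10 animals. CDH5 and TIE1 had Pearson's r = 0.643 (permutation p = 0.0376, adjusted 0.35) and Spearman's rho = 0.612 (permutation p = 0.0647, adjusted 0.323), and r fell to 0.456 without stable animals 3 and 4. PECAM1 and TIE1 had r = 0.642 (permutation p = 0.0467, adjusted 0.35) and rho = 0.539 (permutation p = 0.113, adjusted 0.425), with r = 0.72 without stable animals 2 and 5. PECAM1 and CDH5 had r = 0.599 (permutation p = 0.0716, adjusted 0.358) and rho = 0.721 (permutation p = 0.024, adjusted 0.296), with r = 0.551 without stable animals 2 and 5.

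For VWF, r was -0.0125 with CDH5 (permutation p = 0.968) and 0.329 with PECAM1 (permutation p = 0.342, adjusted 0.732). With TEK r was 0.505 (permutation p = 0.135, adjusted 0.507) and rho 0.673 (permutation p = 0.0395, adjusted 0.296), with r = 0.407 without unstable animals 1 and 5. The 10 pairs of blood genes had a median r of 0.4, and 9 of them were above 0. PDPN had r from -0.235 to 0.211 with the 5 blood genes. After group means or slide means were removed, all 10 blood pairs had r above 0, and 0 of the 15 pairs passed. For CDH5 with VWF these values were near 0, at 0.0329 and 0.00239. That pair had r = -0.236 without stable animal 2 and unstable animal 4. VWF with TIE1 had r = -0.0176 without unstable animals 1 and 5. How often pairs of other genes have r above 0 was not tested. Each slide held at most 4 arrays, too few for a correlation within 1 slide.

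**Figure D4:**
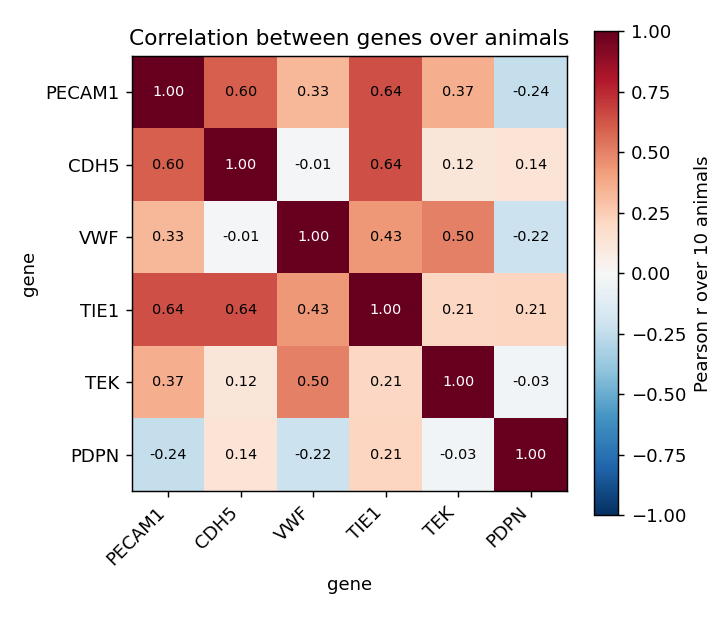
Pearson correlation over 10 animals between the 6 endothelial genes above background on all arrays; colour and number give r. PECAM1, CDH5 and TIE1 form the block of highest values, and the PDPN row stays between -0.235 and 0.211.

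Each gene above background was also set against the animals' mean log2 signal over other marker lists, a family of 66 relations over 11 lists that was added after the data were seen, of which 0 passed correction by Pearson or Spearman and 6 had an unadjusted Pearson p under 0.05. TIE1 came closest, with the 11 other lymphatic endothelial genes above background on 3 or more arrays (r = 0.888, permutation p = 0.00076, adjusted 0.0502; rho = 0.867, permutation p = 0.0023, adjusted 0.12). Without stable animal 3 and unstable animal 5 r was 0.916, within groups 0.947 and within slides 0.894. The genes of that list did not all follow TIE1. CCL21 (r = -0.514) and TFF3 (r = -0.351) went the other way, and MMRN1 (r = 0.23) and EFNB2 (r = 0.36) followed weakly. The rest had r from 0.51 for CD36 to 0.88 for STAB1. The relation of TIE1 to 11 macrophage markers was r = 0.767 (permutation p = 0.00624, adjusted 0.206) and rho = 0.842 (permutation p = 0.00364, adjusted 0.12), with r = 0.744 without the same animals. The lists share MARCO, a scavenger receptor of sinus macrophages and lymphatic sinus endothelium. Without MARCO, STAB1 and CD36, which macrophages also express, the lymphatic list kept r = 0.783 with TIE1. TIE1 also had r = 0.735 with 27 other pan-endothelial genes (permutation p = 0.0197, adjusted 0.26; rho = 0.624, permutation p = 0.06, adjusted 0.566), and r = 0.73 without the same animals. CDH5 had r = 0.711 with those 27 genes (permutation p = 0.0173, adjusted 0.26; rho = 0.782, permutation p = 0.0109, adjusted 0.24), and r = 0.617 without stable animals 3 and 4. With the 11 lymphatic genes CDH5 had r = 0.635 (permutation p = 0.0492, adjusted 0.455; rho = 0.527, permutation p = 0.125, adjusted 0.567), and r = 0.561 without the same 2 animals. TEK and 13 reticular and follicular dendritic cell markers had r = 0.738 (permutation p = 0.0154, adjusted 0.26) and rho = 0.721 (permutation p = 0.0235, adjusted 0.387), with r = 0.673 without stable animal 3 and unstable animal 4.

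**Figure D5:**
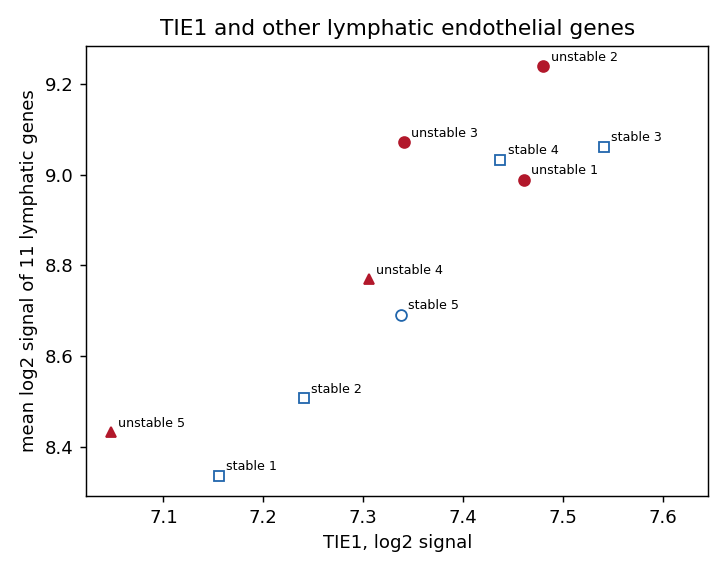
TIE1 log2 signal against the mean log2 signal of 11 other lymphatic endothelial genes in 10 animals, stable in blue open symbols and unstable in red filled symbols, with the symbol shape giving the slide (circle 1, square 2, triangle 3). Stable animal 1 and unstable animal 5 sit at the low end of both axes, and both groups spread along the trend (r = 0.888, adjusted permutation p = 0.0502). Within the list, CCL21 (r = -0.514) and TFF3 (r = -0.351) went against TIE1.

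Other lymphatic endothelial genes gave signal where PROX1 and FLT4 did not, and they spread widely between animals. STAB2, a hyaluronan scavenger receptor of sinus endothelium, ranged from 7.34 in stable animal 1 to 9.63 in unstable animal 2. RELN, a secreted protein made by lymphatic endothelium, ranged from 6.90 in stable animal 1 to 9.25 in unstable animal 2. Both were named after their values were seen. CCL21, the chemokine that draws T cells and dendritic cells into the node, is made by reticular cells as well and ranged from 12.13 to 13.42. Of 20 measured genes of the list, 15 had higher means in unstable animals, beside 9108 of all 18622 genes. In the list 8 were above background on no array, and 0 passed an adjusted p of 0.05. An unadjusted limma p under 0.05 was found for 1, lower in unstable animals, beside 2.73% of all genes. The median log2 difference was 0.02, and the mean signal over the 11 genes was 8.73 ± 0.32 (SD, n = 5) for stable and 8.90 ± 0.312 (SD, n = 5) for unstable animals. The smallest p of this list was that of NTS, the neuropeptide neurotensin, at -0.09 (SE 0.039), which was above background on 0 arrays, followed by CD36, a fatty acid transporter, at 0.51 (SE 0.239). CD36 ranged up to 8.92 in unstable animal 4, and with that animal left out its difference was 0.32. Over the alternative runs the CD36 difference lay between 0.32 and 0.70.

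Genes of the other endothelial lists also gave no call. Of 35 other pan-endothelial genes measured, 27 passed background on at least 3 arrays. In unstable animals 19 had higher and 16 lower means, beside 51.1% of all genes with lower means. An unadjusted p under 0.05 was reached by 0 of the 35, beside 5.13% of all genes. The smallest p among the 35 was that of LDB2, a transcriptional cofactor of endothelial cells, at 0.51 (SE 0.265). The difference was 0.33 with stable animal 2 left out and 0.23 with the 3 older unstable animals left out. It was 0.67 with stable animal 3 left out, the largest of the alternative runs. LDB2 ranged from 9.48 in stable animal 2 to 11.33 in unstable animal 2, and CLDN5, the endothelial tight junction claudin, was likewise highest in unstable animal 2 at 12.17 and lowest in stable animal 1 at 10.30.

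Among 16 high endothelial venule genes, 8 passed background on at least 3 arrays, and 2 had an unadjusted p under 0.05, both lower, beside 2.73% of all genes. These were NTAN1, an amidase, at -0.18 (SE 0.069) and FUT7, the fucosyltransferase that builds L-selectin ligands, at -0.11 (SE 0.047), with FUT7 above background on 1 array (limma adjusted p = 0.942 for both). DARC, the atypical chemokine receptor of venules, ranged from 8.65 to 9.85. The sulfotransferase CHST4 and the addressins GLYCAM1 and MADCAM1 were above background on 0 arrays, and were named after their values were seen.

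No ligand of these receptors passed either threshold. Of 14 genes for VEGF and angiopoietin ligands and other receptors, 8 had lower and 6 higher means, beside 51.1% of all genes with lower means. Of the 14, 0 had an unadjusted p under 0.05, beside 5.13% of all genes. VEGFC, the ligand of FLT4, ranged from 7.73 to 8.19 with a log2 difference of 0.0015 (SE 0.098), and ANGPT1 and FLT1, named after their values were seen, were above background on no array. Of 16 Notch, ephrin and BMP genes of vessels, ID3, a BMP-responsive inhibitor of transcription, alone had an unadjusted p under 0.05, at -0.15 (SE 0.065, limma adjusted p = 0.942), beside 5.13% of all genes.

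Markers of blood and of vessel walls were read beside these genes. All 9 measured erythroid genes had lower means in unstable animals, beside 51.1% of all genes, and 4 were above background on no array. Of the 9, 2 had an unadjusted p under 0.05, both lower, beside 2.73% of all genes. HBB, the beta chain of haemoglobin, ran from 12.58 to 13.22 in stable and from 11.61 to 12.90 in unstable animals, a log2 difference of -0.83 (SE 0.228, limma adjusted p = 0.918). The mean of the 4 erythroid genes above background was 9.26 to 9.83 in stable and 8.84 to 9.45 in unstable animals. Of 10 pericyte and smooth muscle genes KCNJ8, a potassium channel subunit of pericytes, alone had an unadjusted p under 0.05, at 0.36 (SE 0.121, limma adjusted p = 0.942), where 2.41% of all genes were higher at that p. The part of blood content in the endothelial values was not tested.

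The genes most like each marker over the 10 arrays, out of 8910 above background on 3 or more arrays, were as follows, given as a description. VWF was closest to SLC22A17 (r = 0.961), SERGEF (r = 0.919) and STYXL1 (r = 0.916). PDPN was closest to FTHL3 (r = 0.953), UBTD1 (r = 0.94) and IGSF6 (r = 0.921), and TIE1 to SCARB2 (r = 0.942), CST3 (r = 0.927) and NAPRT1 (r = 0.926). TEK lay nearest to PPAP2A (r = 0.938), CTNNAL1 (r = 0.931) and UNG (r = 0.9), CDH5 to LSAMP (r = 0.916), P8 (r = 0.913) and TNFRSF9 (r = 0.904), and PECAM1 to SYNPO (r = 0.905), UNG2 (r = 0.905) and DDEFL1 (r = 0.904). Each is the highest of many values over the same 10 arrays.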

How the data were processed

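The authors deposited probe intensity values, not normalized between arrays, for 24526 probes, and log2 values for 18622 gene symbols with nearly the same distribution on every array. The submitters' processing notes name GenomeStudio, and the normalization is not given in the sources used here. Differences were fitted to all rows of the log2 table with limma 3.58.1 in R 4.3.3 (5 animals a group, no covariates, two-sided, Benjamini-Hochberg adjustment), after a check on simulated data. Intervals use the moderated SE. Gene rows were matched to probes within 0.01 log2 units: 14847 equalled 1 probe and 1956 the mean of 2. Correlations used 100000 permutations. Replicates are separate animals, and arrays carry no depth, so their number limits precision. Replicate numbers did not pair animals. Members and lists were chosen with earlier results of these data known. From other lists the named genes were those of smallest p or brightest signal. The exceptions were PF4, STAB1, MMRN1 and TFF3, and the genes that the text marks as named after their values were seen. The sequences of probes and proteins were not used here.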

Additional observations from a re-analysis of the deposited data

How the results depend on the processing

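Of 228 member differences listed under the alternatives, 0 passed an adjusted p of 0.05, and 20 had the other sign. Some alternatives change only the p and could not turn a sign. These were the exact permutation test, limma's trend and robust options, the replicate block and the filters on background. Signs turned under median scaling for PECAM1 (0.0541), CDH5 (0.016) and TIE1 (0.045), and with normexp correction and median scaling for PECAM1 (0.00104) and TIE1 (0.0363). They turned with slide as a fixed block or slide 1 alone for TIE1 (0.0897) and TEK (-0.127), and not with slide as a random block (-0.0135 and 0.145). They turned with the age label as a covariate for VWF (-0.079) and FLT4 (0.00942), and without the older unstable animals for the same genes (-0.179 and 0.014). TEK was at -0.00158 without stable animal 2 and unstable animal 4. With 1 animal left out, CDH5 ran from -0.205 to 0.0134, TIE1 from -0.0622 to 0.0545 and KDR from -0.0418 to 0.00357. The cause was not tested. The count of called genes in the table, 0, became 1 with slide as a fixed block and 1 without the older animals, and neither was a member. At an unadjusted p under 0.05, 448 genes were higher and 508 lower, against 730 and 401 under median scaling. The lymphatic mean difference moved to -0.157 over genes above background, where PDPN alone is left. The replicate number as a block gave 0 called members and 0 called genes; same-numbered animals' deviations correlated at -0.0594 to 0.00703, so no pairing was assumed, and PDPN had an unadjusted p of 0.0249 there. The background rule with 2 or 4 SDs left 6 members above background on all arrays. Alternatives for the background rule, the TIE1 list and the other named genes were chosen after seeing the data. Differences of NTAN1, FUT7, NTS, ID3, LDB2 and CD36 kept their sign in each alternative run, and their adjusted p stayed above 0.05.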
